A study of Rattus norvegicus with 241 samples.

Results

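The HOX genes of the rat mammary gland were taken as every gene whose symbol was HOX followed by a cluster letter A to D and a paralog number. This gave 29 of the 21707 genes listed in the bulk and single-cell tables, 3 of the HOXA, 10 of the HOXB, 8 of the HOXC and 8 of the HOXD cluster. RefSeq held 39 HOX genes, and those not among the 29 have no level here. By paralog number, 7 were anterior (1 to 3), 12 central (4 to 8) and 10 posterior (9 to 13). Of the 29 genes, 21 were listed in bulk RNA-seq, where no HOXA gene was, 13 in sorted single cells of ACI rats, 18 in sorted single cells of SD rats and 25 in single cells of the whole SD gland.

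HOX genes encode homeodomain transcription factors that stand in 4 chromosomal clusters, and their order along a cluster follows the order in which they are used along the body axis. They bind DNA together with TALE homeodomain cofactors of the PBX, MEIS and PKNOX families, retinoic acid receptors act upstream of the anterior members, and Polycomb and Trithorax complexes keep each cluster silent or active through cell division. In adult tissue, cells of different lineage and body position retain different HOX genes in use, and in the mammary gland several members take part in ductal and alveolar development.

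The series held 241 samples, 202 bulk and 39 single-cell, from female ACI (inbred) and SD (outbred) rats that received the TGFβ type I receptor kinase inhibitor LY2157299 (TGFBRi, 75 mg/kg by gavage) or vehicle. Young virgin ACI rats were dosed from 35 days of age for 10 days and studied 0, 7 or 14 days after the last dose, and young virgin SD rats were dosed from 24 days of age for 10 days and studied on day 0, where the labels call 2 of the 4 treated bulk rats weak and 2 strong responders, which are kept here as 1 group. Adult ACI rats of 18 to 24 weeks were virgin or parous, dosed for 10 days and studied on day 0, other SD rats were dosed with TGFBRi or vehicle from 21 days of age for 10 days, then injected with the mammary carcinogen NMU (50 mg/kg) and studied on day 87 with or without tumors, and virgin ACI rats dosed from 38 days for 21 days then received an implant with 37 mg of estradiol (E2 pellet) or an empty one and were studied at the end of that tumor experiment. Bulk libraries came from cells sorted as basal or luminal epithelium, CD45+ leukocytes or, in tumors, EPCAM+ cells, with 2 to 4 rats per group, and the single-cell libraries from sorted basal and luminal cells (ACI, 3 vehicle and 3 TGFBRi rats; SD, 3 vehicle and 6 TGFBRi rats) and from whole SD gland (3 vehicle and 6 TGFBRi rats). All single-cell rats were young and received neither NMU nor an implant. They were dosed for 10 days from 35 (ACI) or 24 days of age (SD, sorted and whole gland) and studied on day 0. The glands of 1 rat were pooled, and the basal and luminal fractions are gates on CD24 and CD29 among cells without the endothelial marker CD31 and the leukocyte marker CD45, not single cell types. Where a p-value is given, it measures the spread between rats within these groups.

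The 202 bulk samples held 4194912 to 52314784 reads each and gave 196 libraries once samples of the same rat and fraction were averaged, and there were 160052 cells, 103524 of them from whole gland. Cells of the whole gland were clustered with the HOX genes left out, so that HOX levels played no part in the classes, and clusters were named by marker genes. Because the names rest on marker genes, marker levels describe the classes and do not test the names. The summed level of 10 fibroblast markers was 66945 to 113409 CPM in fibroblast-like cells against 48.2 to 442 in basal-like cells. That of 4 lymphatic markers (PROX1, LYVE1, MMRN1, CCL21) was 15110 to 46046 in lymphatic endothelial-like cells against 142 to 1436 in endothelial-like cells. Whole-gland libraries shared 88 to 284 cell barcodes with each other, at most 2.509% of the smaller of 2 libraries compared. Levels are given as CPM, the UMIs or reads of a gene scaled to a common total per library (bulk, sorted cells) or per rat and cell class (whole gland). A UMI is 1 counted molecule, so CPM of UMIs do not grow with gene length, whereas CPM of bulk reads are not corrected for it. How fully each gene was captured was not tested, so an order of genes holds for the libraries that gave it. HOXB2 lay above HOXB3 by median in luminal-like cells of whole gland (5′ libraries). In sorted SD luminal cells (3′ libraries) it lay below HOXB3.

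HOX levels differed by cell class. In whole SD gland, summed over all members and averaged over the 9 rats, lymphatic endothelial-like cells held 219 ± 45.1 (SD, n = 9 rats) CPM of HOX UMIs, endothelial-like cells 123 ± 21.0, mural-like cells 91.6 ± 15.3 and fibroblast-like cells 80.1 ± 13. Epithelial cells were far lower, with 12.9 ± 2.87 in luminal-like and 9.84 ± 3.17 in basal-like cells, and leukocytes lower again, with 6.13 ± 2.10 in myeloid-like, 2.56 ± 1.24 in T or NK-like and 1.5 ± 0.640 in B-like cells. The lowest rat for fibroblast-like cells (63) stood above the highest rat for luminal-like cells (17.9), so the stromal and epithelial ranges did not overlap. Schwann-like cells lay between by mean, at 28.3 ± 10.0, but their range (13.6 to 44.4) overlapped that of luminal-like cells. The ranges of myeloid-like (2.19 to 9.26) and basal-like cells (5.82 to 14.6) overlapped as well.

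**Figure D1:**
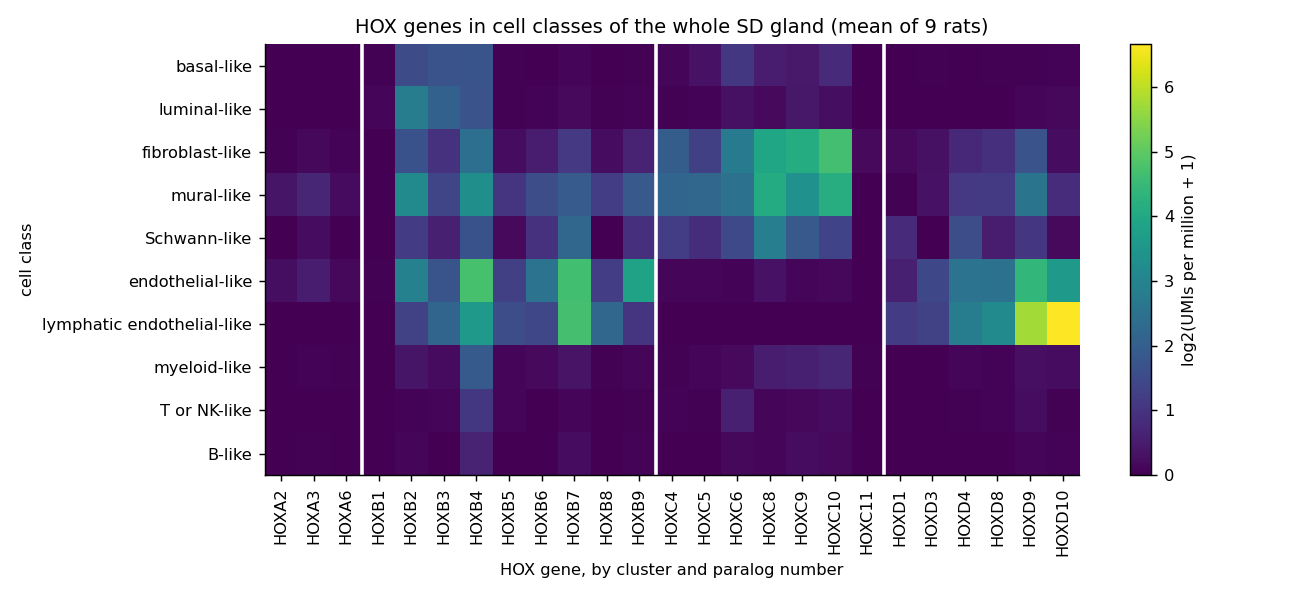
Mean level of 25 HOX genes (columns, by cluster and paralog number) in 10 cell classes (rows) of whole SD gland over 9 rats, as log2(CPM of UMIs + 1), brighter for higher. HOXC genes are bright in fibroblast-like and mural-like cells, HOXB and HOXD genes in endothelial-like cells, HOXD9 and HOXD10 in lymphatic endothelial-like cells (52.2 and 100.3 CPM), and HOXB2, HOXB3 and HOXB4 are the brightest in luminal-like cells.

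The classes also drew on different clusters. Of the UMIs of all listed HOX genes, 89.9% ± 6.53 (SD, n = 9 rats) came from the HOXB cluster in luminal-like cells and 68% ± 10.5 in basal-like cells, where HOXC genes gave a further 30.9% ± 9.88. In fibroblast-like cells 81.9% ± 2.56 came from HOXC, and in mural-like cells 58.8% ± 9.17 from HOXC and 30.9% ± 7.63 from HOXB. Endothelial-like cells used HOXB (63.6% ± 4.20) and HOXD (35.3% ± 4.38), with 0.518% ± 0.405 from HOXC, and lymphatic endothelial-like cells HOXD (76.5% ± 8.18) and HOXB (23.5% ± 8.18), with no HOXC UMI among 5109262 UMIs. By position, anterior members made up 71.1% ± 5.14 of HOX UMIs in luminal-like cells, posterior members 54.4% ± 5.95 in fibroblast-like cells and 69.3% ± 9.27 in lymphatic endothelial-like cells. These shares hold for whole gland, and sorted SD cells gave HOXC genes more weight. Mean HOXB2, HOXB3 and HOXC9 were 1.56, 3.46 and 3.04 CPM in sorted luminal cells of vehicle rats. In treated rats they were 1.00, 3.53 and 0.499. In sorted basal cells HOXC8 and HOXB4 had 3.76 and 3.35 in vehicle and 3.22 and 3.22 in treated rats. Of the HOXA cluster only HOXA2, HOXA3 and HOXA6 were listed, so the shares above leave out its other genes. The listed HOXA genes were scarce in every class: HOXA3, with the most UMIs among them, had a median of 0.548 CPM in mural-like (0 to 1.14), 0.613 in endothelial-like (0 to 0.944) and 0.0480 in fibroblast-like cells (0 to 0.327).

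Fibroblast-like cells expressed a posterior HOXC block. HOXC10, a posterior member used in the lumbar region and hindlimb, had 13.3, 25.5 and 39.3 CPM in the lowest, median and highest of 9 rats. HOXC9, a member of the thoracic and posterior trunk, had 10.7, 15.1 and 23, and HOXC8 had 10.9, 14.0 and 19.8. HOXC10 and HOXC9 overlapped over most of their ranges, so their order in these cells was not clear, whereas HOXC6 (3.99, 5.62 and 8.28) lay below the lowest rat of each of the other 3. HOXB4, the highest HOXB member, had 1.82, 4.07 and 7.83, and HOXD9, the highest HOXD member, 1.56, 2.11 and 3.41.

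Luminal-like cells expressed the anterior HOXB genes. HOXB2, which acts in hindbrain patterning, had 3.88, 5.77 and 10.7 CPM in the lowest, median and highest rat, HOXB3 had 2.09, 3.29 and 4.32, and HOXB4 1.27, 1.96 and 3.85. The 3 ranges stood in that order but overlapped. The highest HOXC member by mean, HOXC9, had 0.0493, 0.102 and 1.13, and HOXC10 had 0.0493, 0.0994 and 0.701. In basal-like cells the ranges of HOXB2 (1.46, 1.89 and 3.14), HOXB3 (0.744, 2.37 and 3.79) and HOXB4 (0.806, 2.39 and 4.14) overlapped over vehicle and treated rats together. In the 3 vehicle rats HOXB2 (1.49 to 1.92) lay above HOXB3 (0.744 to 1.26). In the 6 treated rats these 2 genes overlapped (1.46 to 3.14 and 1.98 to 3.79). The highest HOXC member of basal-like cells was HOXC6, with 0.116, 1.12 and 1.99. All HOXC genes together had 26 UMIs among 57506667 in B-like cells of the same libraries, and whether these were expression or free RNA was not tested. There HOXC9 had 0, 0 and 0.592 CPM in the lowest, median and highest rat and HOXC10 0, 0.118 and 0.431, ranges that overlapped those of luminal-like cells.

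Fibroblast-like against epithelial-like cells (basal-like and luminal-like together) gave 22 of 23 tested members called at an adjusted p of 0.1 or less (edgeR quasi-likelihood test on UMI sums per rat and class, Benjamini-Hochberg adjustment over 17112 genes). Of all genes tested, 70.3% were called, so that a call by itself says little here, and the size and the order of the differences carry the description. The median member was 3.7 higher on the log2 scale, against -0.13 over all genes tested. Of the 22 calls, 19 were higher in fibroblast-like cells and 3 lower.

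The 3 members that were lower were the anterior HOXB1, HOXB2 and HOXB3. HOXB3 was lower by -1.93 ± 0.25 (log2, SE, adjusted p = 1.04e-06) and HOXB2 by -1.05 ± 0.23 (adjusted p = 0.000512). HOXB1 had 13 UMIs in epithelial-like cells and 0 in fibroblast-like cells, which makes it at least 1.56-fold higher in the epithelium (floor of 3 counts over the group, counting error only). From HOXB4 on, every member of the HOXB cluster tested lay on the other side, with HOXB4 at 1.09 ± 0.26 (adjusted p = 0.00103), HOXB7 at 3.41 ± 0.45 (adjusted p = 1.77e-06) and HOXB9 at 4.03 ± 0.57 (adjusted p = 3.72e-06). HOXB5, HOXB6 and HOXB8 lay between 2.33 and 3.98.

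All HOXC members tested were higher in fibroblast-like cells. HOXC10 differed by 6.24 ± 0.35 (log2, adjusted p = 5.27e-12) and HOXC8 by 5.97 ± 0.24 (adjusted p = 3.38e-14). HOXC4 (5.94) and HOXC9 (5.70) were as far apart between the classes as these, given SEs of 0.42 and 0.46. HOXC5 (3.7) and HOXC6 (3.71) showed the smallest HOXC differences among members with UMIs in both classes. HOXC11 had 10 UMIs in fibroblast-like and 0 in epithelial-like cells, at least 9.25-fold higher. In the HOXD cluster HOXD1, HOXD3, HOXD4, HOXD8 and HOXD9 were higher by 2.55 to 5.47, and HOXD10 was not called (1.04 ± 0.71, adjusted p = 0.205). HOXA3 was higher by 2.79 ± 1.03 (adjusted p = 0.0247), on 10 UMIs in fibroblast-like cells.

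**Figure D2:**
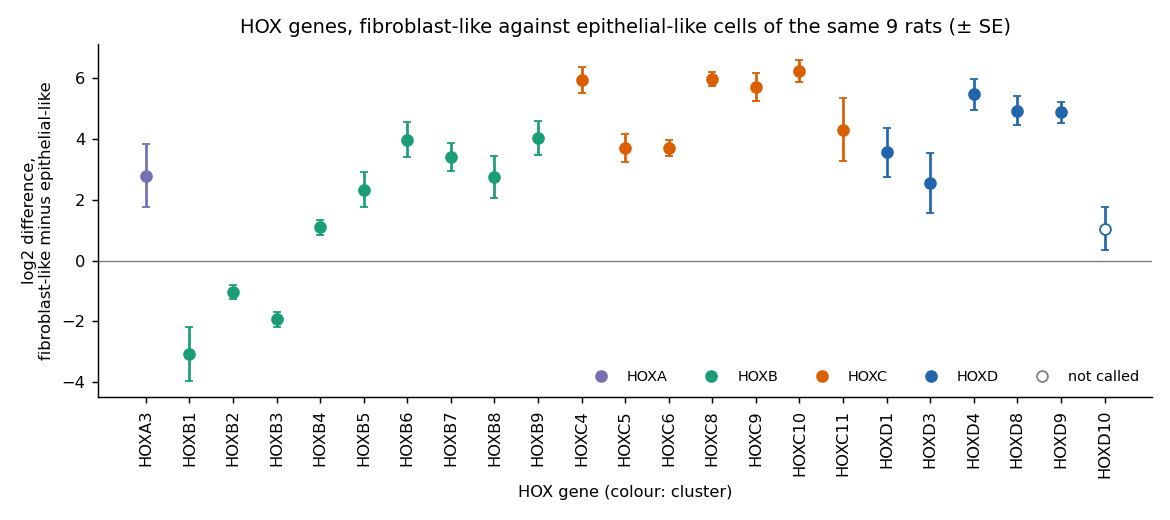
Difference of each HOX gene between fibroblast-like and epithelial-like cells of whole SD gland (log2, points) with its SE (bars), ordered by cluster and paralog number; values above 0 are higher in fibroblast-like cells. HOXB1, HOXB2 and HOXB3 lie below 0, HOXB4 at 1.09, and the HOXC genes between 3.7 and 6.24.

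Set apart by epithelial lineage, the differences were alike in direction except for HOXB2. Against luminal-like cells 22 of 23 members were called (71.3% of all genes), with HOXB2 at -1.38 ± 0.23 (adjusted p = 2.19e-05) and HOXB3 at -2.14 ± 0.25 (adjusted p = 2.48e-07). Against basal-like cells 21 of 22 were called (70% of all genes), with HOXB3 at -1.19 ± 0.29 (adjusted p = 0.00137) and HOXB2 at 0.38 ± 0.23, which was not called (adjusted p = 0.155). Without the fibroblast-like cells of vehicle rat 3, HOXD3 and HOXA3 lost their calls against epithelial-like cells (adjusted p = 0.929 and 1.00), and with the rat as a block the HOXA3 call was lost (adjusted p = 0.152). HOXD10 against basal-like cells lost its call with the rat as a block (adjusted p = 0.126) and in 7 of 18 fits without 1 sample (adjusted p 0.102 to 0.168), HOXA3 against basal-like cells with the block (adjusted p = 0.175), HOXA3 against luminal-like cells with the block (adjusted p = 0.207) and without vehicle rat 3 (adjusted p = 1.00), and HOXD3 without vehicle rat 3 against either lineage (adjusted p = 1.00) and against basal-like cells with the block (adjusted p = 0.223).

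Genes that act with or upstream of the HOX factors also differed between fibroblast-like and epithelial-like cells. Of the 9 TALE cofactors tested 6 were higher in fibroblast-like cells and 1 lower, with MEIS2 at 7.33, PKNOX2 at 4.77 and PBX4 at 4.03 on the log2 scale and PBX2 at -0.56. Of 19 Polycomb genes 2 were higher (CBX6 1.43, BMI1 0.35) and 11 lower, among them CBX7 (-2.24), CBX2 (-1.52) and SUZ12 (-1.03). Of 9 Trithorax and demethylase genes KDM6B was higher (0.74) and 7 were lower, among them the H3K4 methyltransferases KMT2A (-0.82) and KMT2B (-0.80) and their partner DPY30 (-0.64). Of 5 upstream regulators the retinoic acid receptor RARB (3.63) and the retinoic acid hydroxylase CYP26B1 (1.94) were higher, and RARG (-1.01) and RARA (-0.45) lower. These shares are to be read against the 70.3% of all genes called.

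The vessels expressed HOXB and HOXD genes. In endothelial-like cells HOXB4 had 15.5, 26.4 and 33.7 CPM in the lowest, median and highest of 9 rats, HOXB7 11.7, 26.9 and 35.1, and HOXD9 14.4, 19.7 and 28.2. The ranges of these 3 overlapped over vehicle and treated rats together, and HOXB9 (7.27, 13.8 and 18.4) and HOXD10 (6.40, 11.1 and 17.6) lay below them in the median. HOXB7 differed by treatment in these cells, as given below. In lymphatic endothelial-like cells HOXD10 reached 53.5, 99.7 and 173.6 and HOXD9 33.1, 52.6 and 88.3, the highest levels of any member in any class. HOXB7 (7.96, 25.7 and 39.7) and HOXB4 (0, 11.7 and 22.3) followed. HOXC10, HOXC9 and HOXC8 had no UMI there, which makes fibroblast-like cells at least 36.2-fold, 27.8-fold and 25.9-fold higher (floor of 3 counts over the class). Mural-like cells, the smooth muscle and pericytes around vessels, also held HOXC genes, with HOXC10 at 6.44, 16.4 and 34.6, HOXC8 at 11.6, 15.7 and 22.3, HOXB4 at 3.24, 9.33 and 13.2 and HOXD9 at 1.08, 4.98 and 9.84. Their HOXB2 level of 5.31, 7.54 and 12.6 lay above that of fibroblast-like cells (1.14, 2.25 and 3.19) without overlap, and a test between these classes was not run. Of Schwann-like cells, HOXC8 was the highest member (2.02, 4.54 and 17.8, on 24 UMIs).

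The promoters of HOXD9 and HOXD10, the members with the highest levels in lymphatic endothelial-like cells, and of HOXC4, a member with no UMI there, are given with their CG content. Among the 13 members with an entry it ran from 3 (HOXC4) to 38, and HOXA3 and HOXA6, scarce in every class, held 18 and 28, so a high CG count did not go with a high level in each member. RefSeq entries (build GRCr8, not the build of the files) were held for 13 of the 29 members, each taken as the 250 bases before the start, 5′ to 3′ on the plus strand here, with CG dinucleotides in capitals. HOXD9 (chr3:80007756-80008005) held 20 CG, HOXD10 (chr3:80001697-80001946) 21 and HOXC4 (chr7:136048809-136049058) 3.
HOXD9: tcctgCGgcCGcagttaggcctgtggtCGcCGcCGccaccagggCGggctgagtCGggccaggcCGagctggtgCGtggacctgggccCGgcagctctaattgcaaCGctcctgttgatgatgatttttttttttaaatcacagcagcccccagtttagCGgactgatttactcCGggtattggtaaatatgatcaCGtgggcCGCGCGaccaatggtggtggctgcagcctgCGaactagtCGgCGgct
HOXD10: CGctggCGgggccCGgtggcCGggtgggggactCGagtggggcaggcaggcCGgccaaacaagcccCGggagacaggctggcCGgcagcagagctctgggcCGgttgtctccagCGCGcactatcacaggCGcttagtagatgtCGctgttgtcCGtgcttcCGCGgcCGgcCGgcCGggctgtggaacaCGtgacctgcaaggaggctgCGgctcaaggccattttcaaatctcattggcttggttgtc
HOXC4: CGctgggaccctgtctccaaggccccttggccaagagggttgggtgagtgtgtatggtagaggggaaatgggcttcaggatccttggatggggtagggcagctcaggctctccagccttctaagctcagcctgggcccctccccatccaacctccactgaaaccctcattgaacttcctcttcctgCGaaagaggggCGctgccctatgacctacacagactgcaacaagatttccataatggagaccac
Over 33469 rat promoters of this length the median was 5 CG, and 16.7%, 15.1% and 71.4% held at least as many as HOXD9, HOXD10 and HOXC4. The HOX and PBX motif TGATNNAT, searched on both strands, matched in HOXA2 and HOXB1 among the 13 members and in 7.96% of all promoters.

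In bulk libraries of sorted cells the same genes could be followed by fraction, strain and treatment. HOXB3 had the most reads of any HOXB member in 14 of 16 tables, with medians of 0.461 CPM (young ACI CD45+ cells) to 9.94 CPM (adult ACI basal cells), and HOXB4 in the CD45+ tables of the E2 experiment and the tumors (0.398 and 0.216 CPM). Of the HOXC members HOXC10 had the most reads in 9 tables (0.583 to 3.75 CPM) and HOXC8 in 4, up to 7.96 CPM in EPCAM+ tumor cells (3.71 to 20.53 over 6 libraries). Of the HOXD members HOXD4 had the most in 9 tables (0.196 to 2.75 CPM) and HOXD9 in 6, up to 6.07 CPM in EPCAM+ tumor cells (2.45 to 12.4). In the same 6 EPCAM+ libraries the summed level of 10 fibroblast markers was 9805 to 79088 CPM, up to the range of fibroblast-like cells, and its part in the HOXC8 and HOXD9 levels was not tested. These fractions are mixtures in which fewer cells of a type and less RNA per cell cannot be told apart, and because counting ignored strand, reads of overlapping neighbors in a cluster cannot be separated.

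Basal against luminal cells of vehicle rats was compared within each strain, with the 9 ACI rats pooled over days 0, 7 and 14 (limma on log2(value + 1) of the size-factor-scaled counts, Benjamini-Hochberg adjustment over all genes, call at 0.05 or less). In ACI rats 3 of 20 members were called, against 34.1% of all genes, and in SD rats 3 of 15, against 50.1%. HOXC8 was higher in basal cells and HOXB3 lower in both strains, HOXC5 was higher in ACI and HOXB7 in SD basal cells. With the rat as a block, which pairs the fractions of 1 animal, 7 of 20 members were called in ACI rats, against 47.5% of all genes in that fit: HOXC5 (2.97, adjusted p = 0.000719), HOXC8 (1.94, adjusted p = 0.000212), HOXB8 (1.01, adjusted p = 0.0177), HOXC10 (1.13, adjusted p = 0.0186), HOXC9 (1.01, adjusted p = 0.0329) and HOXD4 (1.15, adjusted p = 0.0370) higher in basal cells, and HOXB3 (-0.65, adjusted p = 0.0250) lower.

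In ACI rats HOXB3 had 1.41, 2.4 and 3.71 CPM in the lowest, median and highest of 9 basal libraries and 2.41, 3.91 and 5.80 in 9 luminal libraries. The ranges overlapped, and the difference was -0.65 ± 0.25 (log2, adjusted p = 0.0439). The call was lost in 11 of 18 fits without 1 library (adjusted p 0.0519 to 0.136). Day 7 vehicle rat 3 was labelled control in its title and treatment field but treated in its description for these fractions, and the HOXB3 call was lost without its basal or its luminal library (adjusted p = 0.0573 and 0.136). In SD rats HOXB3 had 2.11, 1.7, 1.66 and 3.52 CPM in the 4 basal libraries and 7.42, 5.28, 10.1 and 7.54 in the 4 luminal libraries. Here every luminal library stood above every basal one, with a difference of -2.30 ± 0.47 (adjusted p = 0.000611). Sorted single cells of SD vehicle rats did not repeat this gap, since the HOXB3 ranges of the fractions overlapped there. Why bulk libraries and single cells differed in this was not tested.

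HOXC8 ran the other way. In ACI rats it had 0.475, 1.31 and 5.41 CPM in the lowest, median and highest basal library and 0.129, 0.370 and 0.621 in luminal libraries. The difference was 1.94 ± 0.45 (log2, adjusted p = 0.000926). In SD rats the basal libraries had 2.23, 3.33, 3.40 and 3.77 CPM and the luminal libraries 0.340, 0.361, 0.559 and 0 CPM. The groups did not overlap, and the difference was 2.89 ± 1.05 (adjusted p = 0.0291), lost without vehicle basal rat 2, 3 or 4 or luminal rat 4 (adjusted p 0.0549 to 0.107).

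HOXC5 in ACI rats had 0.518, 1.02 and 2.27 CPM in the lowest, median and highest basal library against 0, 0.0498 and 0.714 in luminal libraries, a difference of 2.97 ± 0.73 (adjusted p = 0.00174). HOXB7 in SD rats had 0.457, 0.303, 0.940 and 1.07 CPM in the 4 basal libraries, 43 reads in all, and 0 reads in the 4 luminal libraries. This is at least 16.7-fold higher in basal cells (floor of 3 counts over the group, counting error only), with an adjusted p of 0.00520.

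Fibroblast markers were higher in SD basal than luminal libraries, and in most ACI pairs. The summed level of the 9 markers measured of 11 was 34580 to 53623 CPM in SD basal vehicle libraries against 261 to 1467 in SD luminal ones, and in ACI vehicle libraries it was 3515 to 8970 in basal against 702 to 1453 in luminal cells on day 0, 886 to 5698 against 189 to 916 on day 7 and 690 to 5504 against 1055 to 2039 on day 14. The ACI ranges thus overlapped over the 3 days, and day 14 rat 1 ran the other way, with 690 in basal and 1452 in luminal cells. Their part in the higher HOXC8, HOXC5 and HOXB7 and in the lower HOXB3 of basal fractions was not tested. Of the genes acting with HOX factors, to be read against the 34.1% of all genes called in ACI and 50.1% in SD rats, 3 of 9 TALE cofactors were higher and 2 lower in ACI basal cells, led by PBX3 (4.19), and 4 higher and 1 lower in SD basal cells, led by PBX3 (4.25), PKNOX2 (4.00) and MEIS2 (3.76). Polycomb genes were 7 higher and 2 lower of 16 in ACI and 6 higher and 2 lower of 16 in SD rats. Of 6 Trithorax genes 2 were higher and 1 lower in ACI rats, and 1 in each direction in SD rats. Of the upstream regulators 3 of 7 were higher in ACI and 1 of 5 higher and 2 lower in SD basal cells, with RARB higher in both (2.33 and 3.7).

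**Figure D3:**
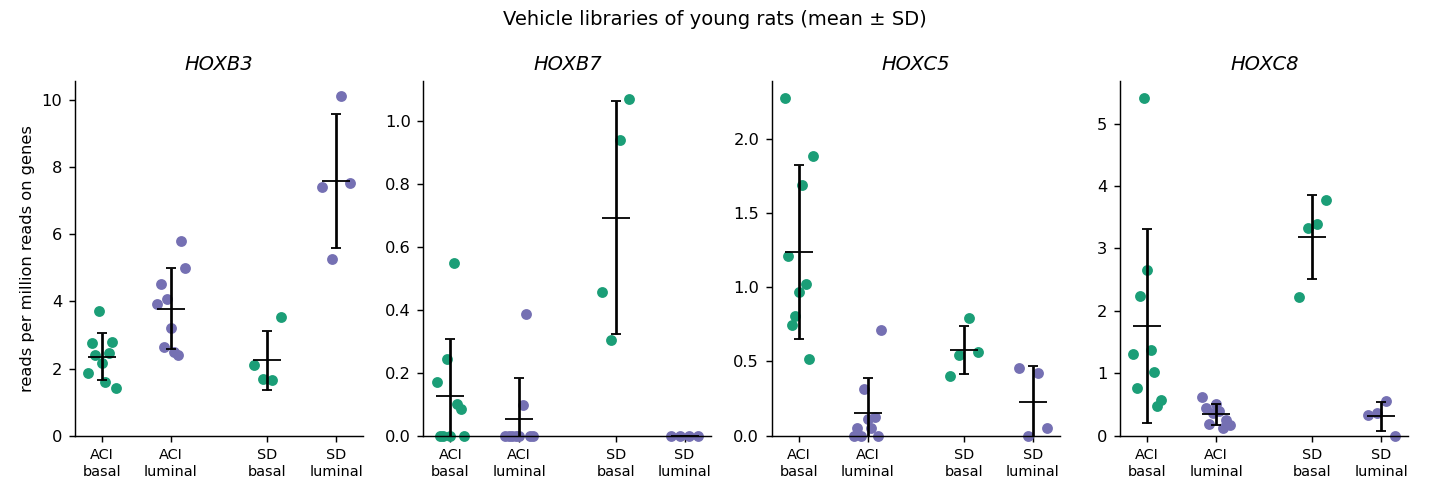
Levels of HOXB3, HOXB7, HOXC5 and HOXC8 (CPM, each point 1 vehicle library) in basal and luminal cells of young ACI (9 libraries each) and SD rats (4 each), with the mean and SD as bars. In SD rats all luminal HOXB3 points lie above the basal ones and all luminal HOXC8 points below.

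The strains themselves were compared in sorted single cells of vehicle rats, where strain, library batch and age (ACI dosed from 35 and SD from 24 days) cannot be told apart. In basal cells 0 of 13 members were called by edgeR (13.1% of all genes), with 0 at an unadjusted p under 0.05 (23.69% of all genes) and 0 by DESeq2. In luminal cells 2 of 9 were called (15.6% of all genes). HOXC9 had 0.848, 0.459 and 0.705 CPM in the 3 ACI rats and 1.80, 4.00 and 3.32 in the 3 SD rats. All SD rats stood above all ACI rats, a difference of -2.32 ± 0.55 (log2, ACI minus SD, adjusted p = 0.0165). HOXB2 had 4.30, 4.95 and 4.30 in ACI and 1.51, 0.821 and 2.34 in SD rats, a difference of 1.3 ± 0.48 (adjusted p = 0.0995) that was lost without any single rat but SD rat 3 (adjusted p 0.162 to 0.274). Marker sums of these luminal libraries also differed without overlap, with 4 lymphatic markers at 28.9 to 33.4 CPM in ACI and 5.15 to 7.28 in SD rats, 10 fibroblast markers at 3.49 to 5.09 and 5.28 to 23, and 9 basal markers at 26.05 to 46.9 and 57.2 to 91.1. Of the lymphatic list MMRN1 was at 0 in the ACI libraries, and MMRN1 and CCL21 in the SD ones. The part of these marker lists in these calls was not tested.

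In sorted SD cells several HOXC genes were lower after TGFBRi, and they are read against the share of all genes called. In SD luminal cells 5 of 9 members were called, all lower after TGFBRi (43.4% of all genes were called). HOXC9 had 1.80, 4.00 and 3.32 CPM in the 3 vehicle rats and 0.170, 0.410 and 0.914 in the lowest, median and highest of 6 TGFBRi-treated rats. HOXC8 had 0.992, 1.13 and 0.521 in vehicle and 0.0507, 0.119 and 0.191 in treated rats, and HOXC10 0.567, 0.923 and 0.977 against 0.0404, 0.131 and 0.345. For these 3 genes every treated rat lay below every vehicle rat.

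The differences were -2.58 ± 0.44 for HOXC8 (log2, adjusted p = 0.00206), -2.23 ± 0.43 for HOXC9 (adjusted p = 0.00285) and -2.04 ± 0.51 for HOXC10 (adjusted p = 0.00889), and no left-out rat ended these calls. HOXC4 had 0.284, 0.923 and 0.651 in vehicle and 0, 0.112 and 0.284 in treated rats, a difference of -1.81 ± 0.59 (adjusted p = 0.0275) that was lost without vehicle rat 2 (adjusted p = 0.12). HOXC6, on 10 and 6 UMIs, differed by -2.27 ± 0.75 (adjusted p = 0.0289) and lost its call without vehicle rat 1 or 2 (adjusted p = 0.163 and 0.127). The remaining 4 tested members did not pass, HOXB3 and HOXB2 among them (0.33 ± 0.24 and -0.43 ± 0.42). Among cells of luminal-like clusters alone the 5 calls were kept, with HOXC8 at -2.57. Unnamed clusters held 0.75% of vehicle and 10.8% of treated luminal cells, up to 44.6% in 1 treated rat. The summed level of 10 fibroblast markers was 5.28 to 23 CPM in vehicle and 2.55 to 100.6 in treated luminal libraries. That of 8 mural markers was 8.01 to 15.1 in vehicle and 4.37 to 10.9 in treated libraries, and that of 4 lymphatic markers 5.15 to 7.28 against 0.836 to 3.97, the latter without overlap. Of the lymphatic list MMRN1 and CCL21 were at 0 in vehicle and MMRN1 in treated libraries. Of the mural list HIGD1B and ABCC9 were at 0 in vehicle libraries. The part of the fibroblast, mural and lymphatic lists in the HOXC differences was not tested. In bulk luminal libraries of SD rats on day 0 limma called none of HOXC4, HOXC8, HOXC9 and HOXC10, and the groups overlapped. There HOXC9 had 0.0992 to 0.963 CPM in vehicle and 0.229 to 1.17 CPM in treated rats (0.46 ± 0.93), and HOXC8 0 to 0.559 against 0 to 1.22 (-1.19 ± 1.15). In luminal-like cells of whole gland HOXC8 (0.68 ± 1.02), HOXC9 (0.50 ± 1.06) and HOXC10 (0.98 ± 0.90) were not called either.

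In ACI luminal cells 0 of 9 members were called (0% of all genes, edgeR), with 0 at an unadjusted p under 0.05 (12.81% of all genes) and 0 by DESeq2. HOXC8 had 0.550, 0.635 and 0.678 CPM in vehicle rats in rising order and 0.349, 0.641 and 1.03 in treated rats, and the groups overlapped. HOXB2 had 4.30, 4.95 and 4.30 CPM in vehicle and 1.72, 2.11 and 2.27 in treated ACI rats, without overlap, and its difference of -0.88 ± 0.48 (log2, adjusted p = 0.442) did not pass. The difference between strains in the response to TGFBRi was itself tested: 0 of 9 members passed (0.00683% of all genes), with 3 at an unadjusted p under 0.05 (10.64% of all genes) and 1 by DESeq2, and for HOXC8 it was -2.92 ± 0.67 (adjusted p = 0.297). A difference between the strains in these HOXC genes is therefore not shown.

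**Figure D4:**
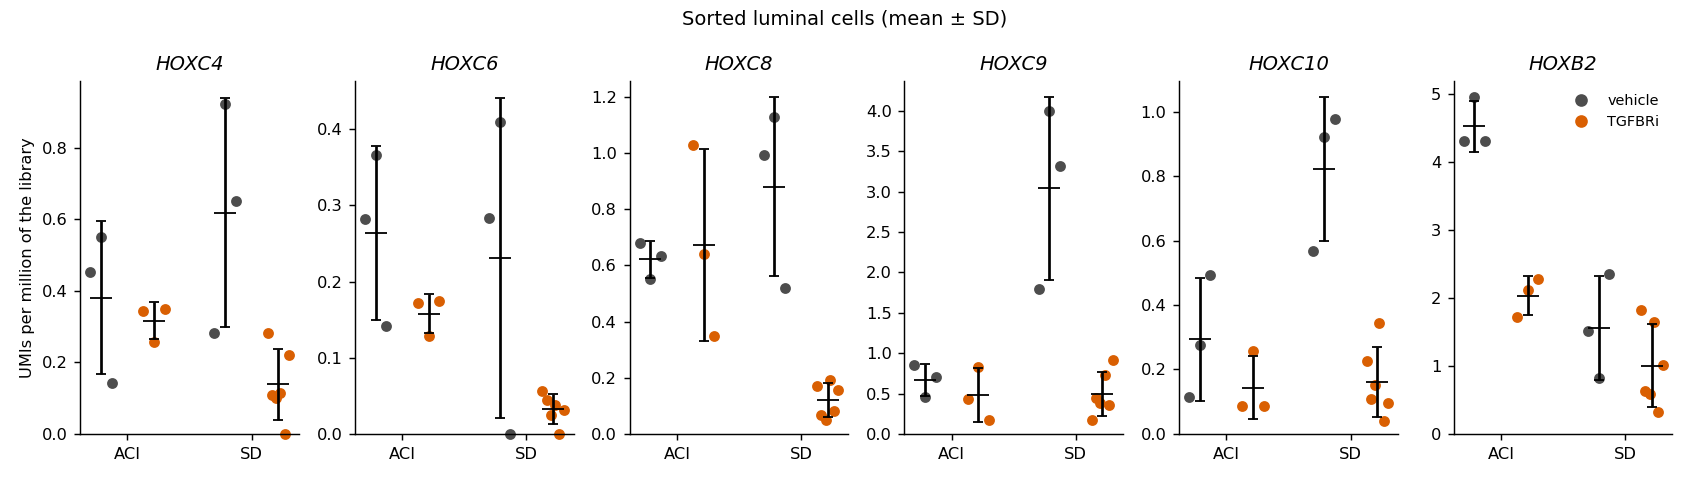
Levels of HOXC4, HOXC6, HOXC8, HOXC9, HOXC10 and HOXB2 (CPM, each point 1 rat) in sorted luminal cells of vehicle and TGFBRi-treated ACI (3 and 3) and SD rats (3 and 6), with the mean and SD as bars. In SD rats the treated points for HOXC8, HOXC9 and HOXC10 all lie below the vehicle points, and in ACI rats the points of these 3 genes overlap.

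In sorted SD basal cells 3 of 13 members were called, all lower after TGFBRi, against 38.7% of all genes. HOXC6 had 1.32, 1.01 and 0.599 CPM in vehicle rats and 0.0538, 0.133 and 0.664 in the lowest, median and highest treated rat, a difference of -2.01 ± 0.57 (log2, adjusted p = 0.0168). HOXB2 had 1.03, 1.18 and 0.718 against 0, 0.240 and 0.436, with no overlap (-1.43 ± 0.49, adjusted p = 0.0397), and lost its call without vehicle rat 1 or 2 (adjusted p = 0.114 and 0.103). HOXC9 had 1.32, 4.57 and 2.51 against 0.431, 0.637 and 2.21 (-1.34 ± 0.56, adjusted p = 0.0831) and lost its call in 6 of 9 fits without 1 rat (adjusted p 0.104 to 0.334). Unnamed clusters held 79.9% of vehicle but 7.48% of treated basal cells. The summed level of 8 mural markers, among them MYH11, which myoepithelial cells also express, was 3037 to 5500 CPM in vehicle and 700 to 2108 CPM in treated basal libraries, without overlap. That of 10 fibroblast markers was 477, 8479 and 292 in vehicle and 197 to 2476 in treated libraries. The part of these in the lower HOXC6, HOXC9 and HOXB2 was not tested. Among cells of basal-like clusters alone HOXC6 was not called (-2.0 ± 0.77, adjusted p = 0.116), HOXB2 was (-2.22 ± 0.63, adjusted p = 0.0242). In ACI basal cells 0 of 13 were called (1.21% of all genes), and 0 of 13 in the test between strains (0.222%). In both, 0 had an unadjusted p under 0.05 (14.28% and 12.87% of all genes) and 0 were called by DESeq2.

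In whole SD gland HOXB3 was higher after TGFBRi in basal-like, luminal-like and fibroblast-like cells, which came from the same 9 rats. In basal-like cells it had 0.744, 0.992 and 1.26 CPM in the 3 vehicle rats and 1.98, 2.99 and 3.79 in the lowest, median and highest of 6 treated rats. The groups did not overlap and the difference was 1.64 ± 0.33 (log2, adjusted p = 0.00247), the call of 1 of 8 members tested (45% of all genes). Summed mural and contractile markers in the same cells were 300.4 to 629 CPM in vehicle and 804 to 1604 CPM in treated rats, also without overlap. Basal markers (13226 to 14903 against 17245 to 23518) and luminal markers (3444 to 3871 against 2259 to 2657) did not overlap either, and the part of these lists in this was not tested. In fibroblast-like cells HOXB3 had 0.418, 0.292 and 0.240 in vehicle and 0.439, 1.28 and 2.00 in treated rats, also without overlap, a difference of 1.74 ± 0.53 (adjusted p = 0.0337) that was lost without vehicle rat 2 (adjusted p = 0.106).

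In luminal-like cells HOXB3 had 2.31, 2.09 and 2.68 in vehicle and 2.52, 3.89 and 4.32 in treated rats, with some overlap. The difference was 0.57 ± 0.20 (adjusted p = 0.0743), the call of 1 of 11 members (27.2% of all genes), lost in 7 of 9 fits without 1 rat (adjusted p 0.113 to 0.182). Luminal markers in these cells summed to 15409 to 19667 CPM in vehicle and 8632 to 13192 in treated rats and basal markers to 209.7 to 550.02 and 73.2 to 107.3, both without overlap, and their part in this was not tested. HOXB3 was not called in endothelial-like (0.57 ± 0.46) or mural-like cells (0.18 ± 0.63). In the sorted single cells of SD rats it differed by -0.16 ± 0.33 in basal and 0.33 ± 0.24 in luminal cells, and in bulk SD day 0 libraries by 0.15 ± 0.42 in basal and 0.03 ± 0.50 in luminal cells, none of them called.

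Fibroblast-like cells had 6 of 22 members called (29.9% of all genes), 3 higher and 3 lower. HOXC6 had 7.52, 8.28 and 7.35 CPM in vehicle rats and 3.99, 5.16 and 5.83 in the lowest, median and highest treated rat, with no overlap, and fell by 0.84 on the log2 scale (SE 0.18, adjusted p = 0.00568). HOXC4, of the same cluster, had 1.67, 1.07 and 1.87 in vehicle and 2.45, 3.83 and 4.51 in treated rats, again without overlap, a rise of 0.93 ± 0.32 (adjusted p = 0.0540). The HOXC4 call was lost without vehicle rat 1 or 2 or treated rat 6 (adjusted p 0.107 to 0.202). Transcripts of HOXC4, HOXC5 and HOXC6 can begin at a shared upstream exon, so reads of 5′ libraries such as these may not separate the 3 genes.

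Mural markers in the fibroblast-like cells summed to 111.4 to 146.8 CPM in vehicle and 161.4 to 227.6 CPM in treated rats. Endothelial markers (37.9 to 50.6 against 30.5 to 37.3) and leukocyte markers (10.2 to 31.3 against 31.9 to 42.2) also differed without overlap, and the part of these lists in the calls was not tested. The other calls in fibroblast-like cells rested on few UMIs. HOXD3 had 0, 0 and 0.0480 CPM in vehicle and 0.116, 0.337 and 0.639 in treated rats (2.96 ± 0.91, adjusted p = 0.0354, lost without vehicle rat 2, adjusted p = 0.115), on 1 and 16 UMIs. HOXB9 had 1.25, 0.779 and 0.720 against 0, 0.396 and 0.693 (-1.49 ± 0.56, adjusted p = 0.0770, lost in 4 of 9 fits without 1 rat, adjusted p 0.125 to 0.182). HOXB5 had 0.279, 0.389 and 0.240 against 0, 0.102 and 0.173 (-1.62 ± 0.61, adjusted p = 0.0784, lost in 6 of 9 such fits, adjusted p 0.113 to 0.206). The high members HOXC8, HOXC9 and HOXC10 were not called there.

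In endothelial-like cells 3 of 16 members were called (31.7% of all genes). HOXB7, which with HOXB4 was the highest HOXB member there, had 11.7, 13.7 and 14.9 CPM in vehicle and 20.4, 30.1 and 35.1 in the lowest, median and highest treated rat, without overlap, a rise of 0.94 ± 0.17 (log2, adjusted p = 0.00197) that no left-out rat ended. Mural markers in these cells summed to 126.7 to 131.9 CPM in vehicle and 143.5 to 179.8 CPM in treated rats and endothelial markers to 2277 to 2769 and 2859 to 3467, both without overlap, and their part in this was not tested. HOXD10 had 11.4, 17.6 and 12.4 against 6.40, 10.7 and 11.6, with slight overlap, and differed by -0.69 ± 0.21 (adjusted p = 0.0342), not called without vehicle rat 2 (adjusted p = 0.178). HOXD3 had 0.186, 0.594 and 1.11 against 1.23, 2.13 and 4.21, without overlap (1.5 ± 0.55, adjusted p = 0.0661, lost in 3 of 9 fits without 1 rat, adjusted p 0.114 to 0.213).

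In mural-like cells 3 of 19 members were called (28.0% of all genes), all lower after TGFBRi. The summed mural markers of the same cells were 4227 to 4750 CPM in vehicle and 5156 to 6360 CPM in treated rats, without overlap, and their part in this was not tested. HOXB2 had 11.3, 12.6 and 7.54 in vehicle and 5.31, 6.94 and 8.75 in treated rats, with overlap (-0.77 ± 0.24, adjusted p = 0.0336, lost without vehicle rat 2, adjusted p = 0.154). HOXB5 had 1.99, 2.27 and 1.23 against 0, 0.719 and 1.09 (-1.93 ± 0.72, adjusted p = 0.0748, lost in 5 of 9 fits without 1 rat, adjusted p 0.117 to 0.192). HOXB6 had 3.65, 1.26 and 3.56 against 0.758, 1.54 and 2.19 (-1.19 ± 0.47, adjusted p = 0.0916, lost in 6 of 9, adjusted p 0.105 to 0.251).

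**Figure D5:**
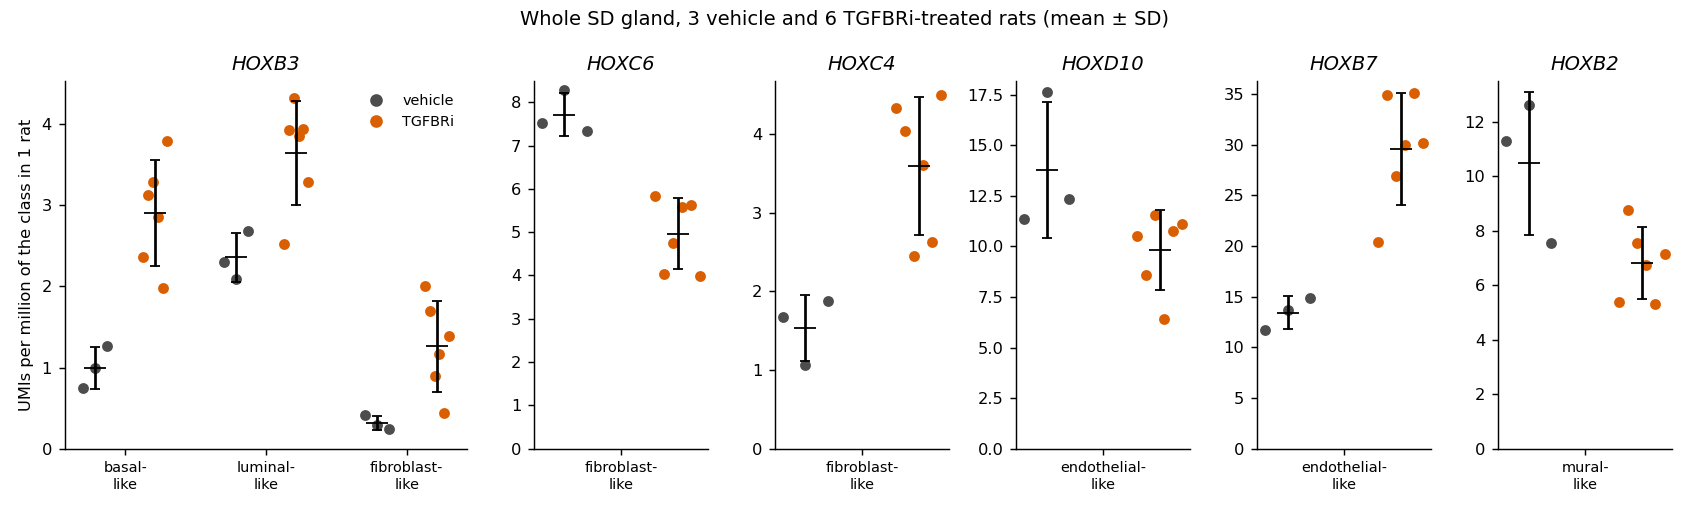
Levels of members called in whole SD gland (CPM, each point 1 rat; 3 vehicle and 6 TGFBRi-treated rats, mean and SD as bars), HOXB3 in basal-like, luminal-like and fibroblast-like cells, HOXC6 and HOXC4 in fibroblast-like, HOXD10 and HOXB7 in endothelial-like and HOXB2 in mural-like cells. Treated and vehicle points do not overlap for HOXB3 in basal-like and fibroblast-like cells, HOXC6, HOXC4 and HOXB7.

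Among the genes acting with HOX factors, counts are to be read against the share of all genes called, 45% in basal-like, 29.9% in fibroblast-like, 38.7% in sorted SD basal and 43.4% in sorted SD luminal cells. TALE cofactors after TGFBRi were 3 higher and 0 lower of 7 in basal-like cells, among them MEIS1 at 1.34 and PBX3 at 0.56 (log2), and 2 higher and 0 lower of 9 in fibroblast-like cells. In sorted SD cells 2 TALE cofactors were lower and 0 higher of 8 in either sort. Polycomb genes were 2 higher and 10 lower of 19 in sorted SD basal and 2 higher and 7 lower of 19 in sorted SD luminal cells, with JARID2 (-1.22 and -1.21) and BMI1 (-1.17 and -1.22) lower in both. Upstream regulators were 3 higher and 0 lower of 4 in basal-like cells, RARB (1.76), CYP26B1 (1.39) and RARA (0.62).

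Young bulk libraries gave 1 call after TGFBRi. In ACI basal cells 1 of 19 members was called on day 0 and 0 on days 7 and 14 (limma), while 3.34%, 0.00639% and 0% of all genes were called. The call was HOXB13, the most posterior HOXB member, with 3, 1 and 3 reads (0.457, 0.238 and 0.198 CPM) in the 3 treated libraries and 0 in the 3 vehicle libraries. This is at least 4.45-fold higher (floor of 3 counts over the group, counting error only), adjusted p = 0.0332, and it was lost without vehicle rat 1 or 2 or treated rat 2 (adjusted p 0.0846 to 0.110) and with edgeR, DESeq2 or the 2 groups fitted alone. Treated rats 1 and 2 had the shallowest of the 6 libraries, with 6562769 and 4194912 reads against 12382292 to 18781674 in vehicle.

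No member was called in young ACI luminal cells (1.01%, 0% and 0% of all genes on days 0, 7 and 14), in ACI CD45+ cells (2.85%, 0% and 0%, with 1 treated day 7 library whose title gives day 9) or in SD basal, luminal and CD45+ cells on day 0 (0% each). Nor was any called in NMU-exposed SD glands, where treated tumor-free and treated tumor-bearing rats were each set against the same vehicle tumor-bearing rats, in basal (0% and 1.31%), luminal (0.948% and 0.212%) or CD45+ cells (0% and 0.0150%), nor in EPCAM+ (0%) or CD45+ cells (0%) of NMU tumors. Over all bulk comparisons in which limma called 0 members, 0 to 2 members had an unadjusted p under 0.05 in 9 basal, 0 to 6 in 15 luminal, 0 to 2 in 17 CD45+ comparisons and 0 in 1 of EPCAM+ cells. In these comparisons edgeR called 0 members and DESeq2 at most 1, in 3 luminal and 1 CD45+ comparison. The 6 were of 16 members in young ACI luminal cells on day 0, where 19.85% of all genes had such a p. The 2 in basal cells were of 14 by parity over both treatments (18.38%). In CD45+ cells 2 was reached where 2.702% to 17.9% of all genes had it. On day 0 in young ACI rats the median member stood at 1.78 (log2) in basal, 1.69 in luminal and -1.56 in CD45+ cells. Over all genes these medians were 0.298, 0.212 and -0.0381. In the same CD45+ libraries fibroblast markers summed to 12722 to 32460 CPM in vehicle and 1009 to 7328 CPM in treated rats. Mural markers summed to 109 to 180 and 18.5 to 35.3, and neither sum overlapped. In the basal and luminal libraries of day 0 both sums overlapped between treated and vehicle rats. The part of these lists and of library depth in the medians was not tested.

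In bulk basal cells of young ACI and SD rats HOXB3 was not called after TGFBRi. In adult ACI basal cells HOXB3 was the member called higher after TGFBRi, in virgin rats. Virgin treated rats had 15.5, 16.8, 12 and 10.6 CPM and virgin vehicle rats 4.98, 5.10, 4.52 and 9.07, without overlap. The difference was 1.26 ± 0.37 (log2, adjusted p = 0.0443), the call of 1 of 14 members (8.73% of all genes, the median of which was -0.25). It was lost in 6 of 8 fits without 1 library, those of vehicle rats 1 to 3 and treated rats 1 to 3 (adjusted p 0.0645 to 0.121), and with edgeR. Fibroblast markers summed to 1246 to 3079 CPM in virgin vehicle rats and to 452, 572, 703 and 5524 in virgin treated rats 1 to 4, and mural markers to 1883 to 4157 and 862 to 2706. The 3 lymphatic markers measured summed to 24.9 to 443 CPM in vehicle and 0 to 23.5 in treated rats, without overlap, and PROX1 was at 0 in the treated rats. Virgin vehicle rat 1 stood apart in luminal markers, with 15643 CPM against 4239 to 4655 in the other 3. Their part in the HOXB3 difference was not tested. In parous rats HOXB3 had 11.4, 7.10, 9.82 and 10.0 CPM after TGFBRi and 7.73, 3.9, 10.6 and 11 in vehicle, which overlapped (0.25 ± 0.37), and 0 of 14 members were called (0.00744%). The difference between parous and virgin rats in this response was -1.0 ± 0.52 (adjusted p = 0.340), and 0 of 14 members passed that test (1.04%).

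Parity was tested within and over treatments. In basal cells 0 of 14 members were called over both treatments (1.14% of all genes), 0 within vehicle (0%) and 1 within TGFBRi (12.1%). The call was HOXC8, with 3.47, 3.85, 4.73 and 2.30 CPM in parous treated rats and 0, 0, 0 and 6.98 in virgin treated rats, a fitted difference of 4.53 ± 1.21 (adjusted p = 0.0243). All 144 HOXC8 reads of the virgin treated group came from rat 4, while virgin vehicle rats had 1.88, 1.86, 1.69 and 2.60 CPM and parous vehicle rats 3.02, 1.56, 1.74 and 2.86. The same library had a summed fibroblast marker level of 5524 CPM against 452, 572 and 703 in the other 3. Mural markers were 4199 to 4725 in parous and 862 to 2706 in virgin treated rats, and luminal markers 2574 to 3439 and 3638 to 4554, both without overlap. The part of the fibroblast, mural and luminal lists in the HOXC8 level was not tested. The call was lost without virgin treated rat 3 or parous treated rat 1, 2 or 3 (adjusted p 0.0545 to 0.0626) and with edgeR or DESeq2.

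In adult ACI luminal cells 0 of 17 members were called after TGFBRi in virgin (0% of all genes) or parous rats (0.0281%), by parity over both treatments (0.0140%), within vehicle (0%) or TGFBRi (0%), or in the difference between the responses (0%). In CD45+ cells 0 of 13 were called in virgin (0.0220%) or parous rats (0%), by parity over both (0%), within vehicle (0%) or TGFBRi (0%), or in the difference (0%).

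In the E2 experiment HOXB13 was the member that differed by E2. It had 4.05, 1.86, 2.21 and 0.614 CPM (119, 49, 42 and 14 reads) in luminal cells of the 4 vehicle rats with an E2 pellet, all of them tumor-bearing, and 0 reads in the 4 vehicle rats without E2. This is at least 67.6-fold higher with E2 (floor of 3 counts over the group, counting error only), adjusted p = 0.00468, the call of 1 of 16 members (1.48% of all genes). No left-out library ended it, DESeq2 also called it, and edgeR did not. Luminal markers summed to 18573 to 24370 CPM in these libraries with E2 and 27698 to 36157 without, and 2 erythroid markers to 0.374 to 1.41 and 0 to 0.296, both without overlap, and their part in this was not tested. E2 and the presence of a tumor in the animal cannot be told apart here.

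After TGFBRi, HOXB13 had 0, 0, 0.0373 and 0.0411 CPM in the 4 E2-treated rats that stayed tumor-free, 1.57 and 0 in 2 that were tumor-bearing and 0 reads in the 3 without E2. Against the same vehicle rats the tumor-free group differed by -5.13 ± 0.96 (fitted log2, adjusted p = 0.0995), which did not pass, and no member was called in luminal cells of rats without E2 (0.0147% of all genes), tumor-free with E2 (0.0147%) or tumor-bearing with E2 (0.00736%). In CD45+ cells 0 of 12 members were called in the same 3 comparisons (0%, 0% and 0.0223%) or by E2 in vehicle rats (0.282%).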

How the data were processed

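RNA of sorted mammary fractions (202 bulk samples) and single cells (39 samples) was analysed. Bulk values were deposited as a signal per gene: the authors aligned reads with STAR 2.5.1b to rn6, counted them without strand using HTSeq, kept genes of at least 10 counts and divided the counts by a DESeq2 1.30.1 size factor per library. Whole reads were recovered from these values, with 100% of 2526805 values whole at a tolerance of 0.001. Single-cell files were deposited as unscaled counts of UMIs, for which the authors ran Cell Ranger 4.0.0 (sorted cells, 3′ libraries, kept by the authors where no PTPRC read and cytokeratin reads were present) or Cell Ranger 7.0.0 (whole gland, 5′ libraries). Depth was 4194912 to 52314784 reads per bulk sample. Samples of the same rat and fraction were averaged (reads summed). Intervals and floors cover counting error only.

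Bulk values were tested as log2(value + 1) with limma 3.58.1 (trend, robust) where genes summed to at least 10, with calls at an adjusted p of 0.05. Fits ran within tables that the authors had scaled together. UMIs were summed per rat and cell class (at least 10 cells) and tested with edgeR 4.0.16 (TMM, quasi-likelihood, at least 10 UMIs), with calls at 0.1. Cells were clustered with scanpy 1.11.5 and leidenalg 0.10.2 without HOX genes. Doublets were scored with Scrublet and kept, and an alternative left out the top 6% of scores. Scripts were tested on simulated data. Alternatives were DESeq2 1.42.0 (R 4.3.3), other filters and pseudocounts, only the compared groups, left-out libraries and the rat as a block.

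Basal and luminal libraries of 1 rat were paired by the animal named in the labels. Deviations of the same rat correlated at -0.0248 to 0.790 over 18 ACI pairs and 0.0679 to 0.215 over 8 SD pairs, and at 0.208 to 0.364 between fibroblast-like and epithelial-like cells over 9 rats.

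The members and the lists (TALE cofactors, Polycomb, Trithorax and demethylases, upstream regulators, cell type markers) were chosen with earlier results of these data known. Members called in a comparison, and the highest member of a cluster in a class, were named. List genes were named by size of change among those called, and some of them are not reported here.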

Additional observations from a re-analysis of the deposited data

Results flagged for a closer look

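In 37 groups of at least 4 libraries in which a called or leading member was looked at, 2 held a sample far from the others, where chance gives about 1 group in 20. HOXB3 in adult virgin ACI basal vehicle cells reached 9.07 CPM in rat 4, against 4.52 to 5.10 CPM in the other 3. HOXC8 in adult virgin ACI basal TGFBRi-treated cells reached 6.98 CPM in rat 4, against 0 in the other 3.

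Lymphatic endothelial-like cells of whole SD gland entered no tested comparison and held HOX levels above the limit that a count of 0 allows. Over 9 rats the mean was 100.3 CPM for HOXD10, 52.2 for HOXD9 and 25.1 for HOXB7.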

How the results depend on the processing

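Of 389 values of named genes under alternatives other than a left-out library, 359 kept their direction and side of the threshold, 30 lost the call and 0 reversed, and of 1451 with 1 library left out, 1357 kept both, 94 lost the call and 0 reversed. Of 330 counts of called members, 22 moved by over 1.5 times, and the cause was not tested. With the rat as a block the ACI basal against luminal count was 7 in place of 3, and by DESeq2 5; the block moved no other count by over 1.5 times. For ACI basal day 0 the count (1) was 2 with a pseudocount of 5 and 0 with a mean filter of 10, edgeR, DESeq2 or only the compared groups. For adult virgin basal TGFBRi (1) it was 0 by edgeR or with only the compared groups, for parity within TGFBRi-treated basal cells (1) it was 0 by edgeR, DESeq2 or only the compared groups, and for E2 in luminal cells (1) it was 0 by edgeR. DESeq2 gave 1 in place of 0 for ACI luminal day 0, both NMU luminal comparisons, ACI CD45+ day 0 and the luminal strain interaction, and 1 in place of 3 for mural-like cells. For ACI against SD the basal count (0) was 1 in basal-like clusters alone and the luminal count (2) was 1 without a filter. For luminal-like cells (1) it was 3 without the top 6% of Scrublet scores.

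With 1 library left out at a time, counts ran from 0 to 6 for ACI basal day 0, 0 to 4 for ACI luminal day 0, 0 to 2 for adult virgin basal TGFBRi and for parity within TGFBRi, 0 to 1 for parity over both treatments, its interaction, both NMU luminal comparisons and the tumor-bearing E2 luminal and CD45+ comparisons, 1 to 4 for SD sorted basal, 3 to 6 for SD sorted luminal, 1 to 2 for ACI against SD luminal, 0 to 2 for luminal-like, 1 to 8 for fibroblast-like and 1 to 4 for mural-like cells. HOXB13 on ACI basal day 0 rested on 7 reads.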
